A study of Mus musculus with 20 samples.

Results

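The expression of 10 transcription factor genes of granulosa cells (GCs), *Foxl2*, *Gata4*, *Gata6*, *Wt1*, *Foxo1*, *Cebpb*, *Runx1*, *Runx2*, *Maf* and *Foxp2*, was described out of 55487 mouse genes counted. They were matched by gene symbol to the Ensembl identifiers of the count files, and all 10 were found. 7 of them are established regulators of GCs and were tested; *Runx2*, *Maf* and *Foxp2* were chosen because of their levels in these same samples, so their values are given as a description without a test. GCs of 20 female mice were sequenced, 5 mice in each of 4 groups: the unselected control line (ctrl) in estrus, the high-fertility line 1 (FL1) in estrus, ctrl in diestrus and FL1 in diestrus. Both lines go back to the same founder population, FL1 was bred over generations for litter size and weight, and no mouse received a treatment or carried an engineered allele. The mice were 77 ± 5 days old, and the stage was read from a vaginal smear, with only cornified cells taken as estrus and only leucocytes as diestrus. Each sample is the mural GCs of the 7 to 10 largest follicles of 1 mouse, collected so as to leave out oocytes and cumulus cells; since each line is 1 breeding population, a difference between ctrl and FL1 covers everything in which the lines differ.

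GCs surround and nourish the oocyte. FOXL2 maintains the ovarian identity of these cells and represses the testicular program, GATA4, GATA6 and WT1 are shared by the somatic cells of both gonads, and FOXO1 is active in growing follicles, where follicle-stimulating hormone (FSH) signalling restrains it. When luteinizing hormone (LH) reaches the preovulatory follicle, GCs leave this program, and C/EBPβ (*Cebpb*), RUNX1 and RUNX2 take part in ovulation and in the change to luteal cells. MAF is a basic leucine zipper factor known from lens, cartilage and macrophages, and FOXP2 is a forkhead repressor known from brain and lung.

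Levels are given in CPM, the count of a gene relative to the total of its library after TMM scaling over the 20 samples. The libraries read only the 3′ end of each mRNA, so a count does not grow with transcript length and CPM was not divided by it. Each sample had between 5446576 and 8257041 reads on genes, and those were 48.9 to 58.4% of the reads in its file. GC markers were high as a sum in every sample: 10 GC marker genes, among them the FSH receptor gene *Fshr*, the aromatase gene *Cyp19a1* and the inhibin gene *Inha*, summed to between 7468 and 23079 CPM. The highest group means of the list were those of *Gja1*, at 3439 to 6796 CPM, and *Inha*, at 4137 to 5684 CPM. Those of *Fshr* were 45.6 to 149.9 CPM, of *Cyp19a1* 36.9 to 133 CPM and of *Amh*, the anti-Müllerian hormone gene, 1.00 to 7.71 CPM. Of the other cell types looked for, 8 luteal marker genes summed to 2389 to 6132 CPM in ctrl estrus, 10305 to 14853 CPM in FL1 estrus, 2281 to 7015 CPM in ctrl diestrus and 4321 to 9122 CPM in FL1 diestrus, which separates the lines in estrus but not in diestrus. 10 leukocyte marker genes summed to 20.01 to 51.9 CPM in ctrl estrus, 49.6 to 129 CPM in FL1 estrus, 7.69 to 23.5 CPM in ctrl diestrus and 10.7 to 93.5 CPM in FL1 diestrus. Over all samples the theca list summed to 461 to 1331 CPM, stroma to 162 to 1962 CPM, endothelium to 16.1 to 104.9 CPM, oocyte to 58.04 to 634 CPM and surface epithelium to 4.10 to 73.6 CPM, so oocyte transcripts were present in every sample. In such samples, fewer cells of a type and less RNA per cell cannot be told apart. FL1 estrus replicate 2 stood apart from its group: it had the lowest GC marker sum of all samples, 7468 CPM, and its 6 cumulus and ovulation marker genes summed to 460 CPM, against 14.03 to 119.9 CPM in the other 19 samples. *Adamts1*, a protease gene, alone made up 455 CPM of the 460 CPM, and the other 5 genes summed to 5.38 CPM in this mouse, within their range of 0.520 to 18.8 CPM over all samples. The results of the members and of *Star* and *Lhcgr* that turn on this mouse are given with and without it.

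**Figure D1:**
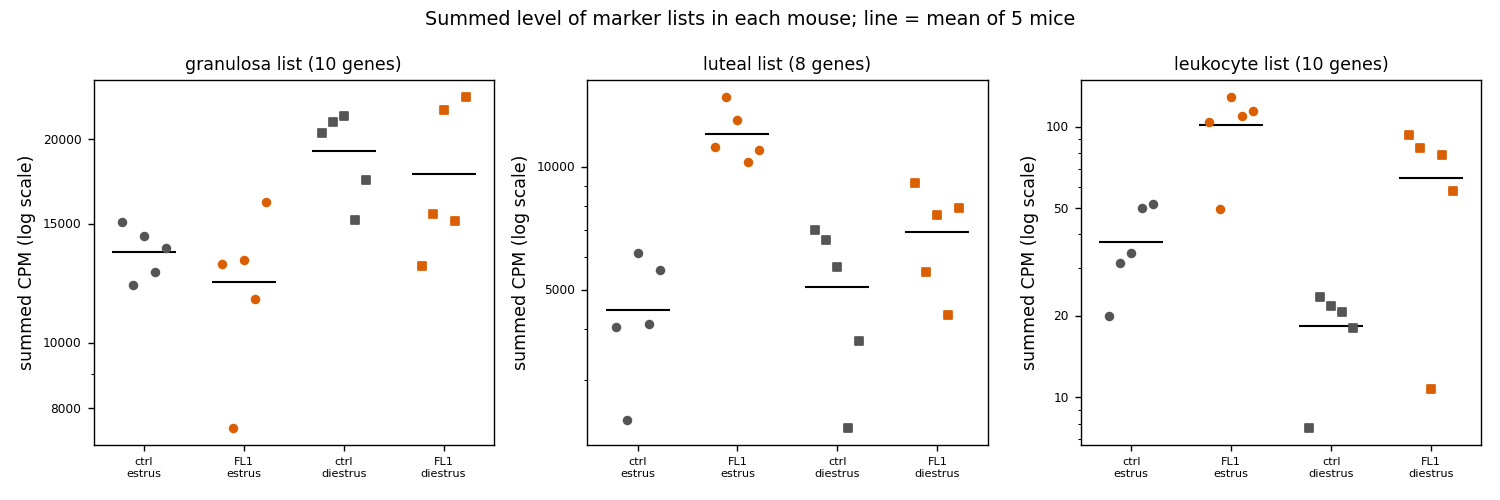
Summed CPM (log scale) of the granulosa, luteal and leukocyte marker lists in each of the 20 mice, 5 per group, with a line at the group mean. In estrus the luteal sums of FL1, from 10305 CPM upwards, lie above those of ctrl, which end at 6132 CPM; in diestrus the lines overlap.

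Reference sequence upstream of the start site was at hand for 5 of the members (*Foxl2*, *Foxo1*, *Cebpb*, *Runx1* and *Runx2*), and is shown for the *Foxo1* and *Runx1* genes, which differed between the stages below, and for *Runx2*, the member with the widest range. The 250 bases before the *Foxo1* start hold 20 CG dinucleotides and those before the proximal of 2 *Runx1* start sites hold 27, where the median of 32851 mouse promoters of the same length is 6. The window before the distal *Runx1* start, chr16:92826075-92826324, holds 2, and 70.97% of promoters hold more; it is not shown. Capitals mark each CG in the *Foxo1* and *Runx1* windows.
*Foxo1*, chr3:52268087-52268335, plus strand: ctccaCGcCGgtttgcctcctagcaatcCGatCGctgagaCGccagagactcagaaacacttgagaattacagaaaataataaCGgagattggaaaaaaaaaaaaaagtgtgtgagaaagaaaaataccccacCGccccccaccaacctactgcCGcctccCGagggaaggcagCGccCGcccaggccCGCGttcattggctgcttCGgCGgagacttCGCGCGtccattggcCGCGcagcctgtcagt
*Runx1*, chr16:92697330-92697579, minus strand: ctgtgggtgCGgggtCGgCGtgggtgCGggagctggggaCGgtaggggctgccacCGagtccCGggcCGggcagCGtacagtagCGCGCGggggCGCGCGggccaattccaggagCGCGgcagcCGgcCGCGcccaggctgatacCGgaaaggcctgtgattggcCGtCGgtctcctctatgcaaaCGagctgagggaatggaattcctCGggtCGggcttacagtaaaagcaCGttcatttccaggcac
The 250 bases before the *Runx2* start hold no CG, and they hold the RUNX core TGTGGT, which reads ACCACA on the strand of the gene, beginning 80 bases before the start, in a stretch that GENCODE annotates as exon. Capitals mark that match.
*Runx2*, chr17:44814690-44814719, minus strand: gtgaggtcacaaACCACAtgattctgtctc
The RUNX core was found on either strand in 14.05% of the 32851 promoters. The *Runx2* window also held the C/EBP motif TTGCNNAA, found in 9.564% of promoters, and no other member window held a match to the 7 motifs searched, which besides these were AGATAA for GATA factors, TGTTTAC for FOXO factors, TGCTGA for MAF factors, CAAGGTCA for NR5A factors and TGACGTCA for CREB, each on both strands. All sequences are RefSeq GRCm38.p6, 5′ to 3′ on the strand of the gene. A match describes the letters only, and says nothing about binding.

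**Figure D2:**
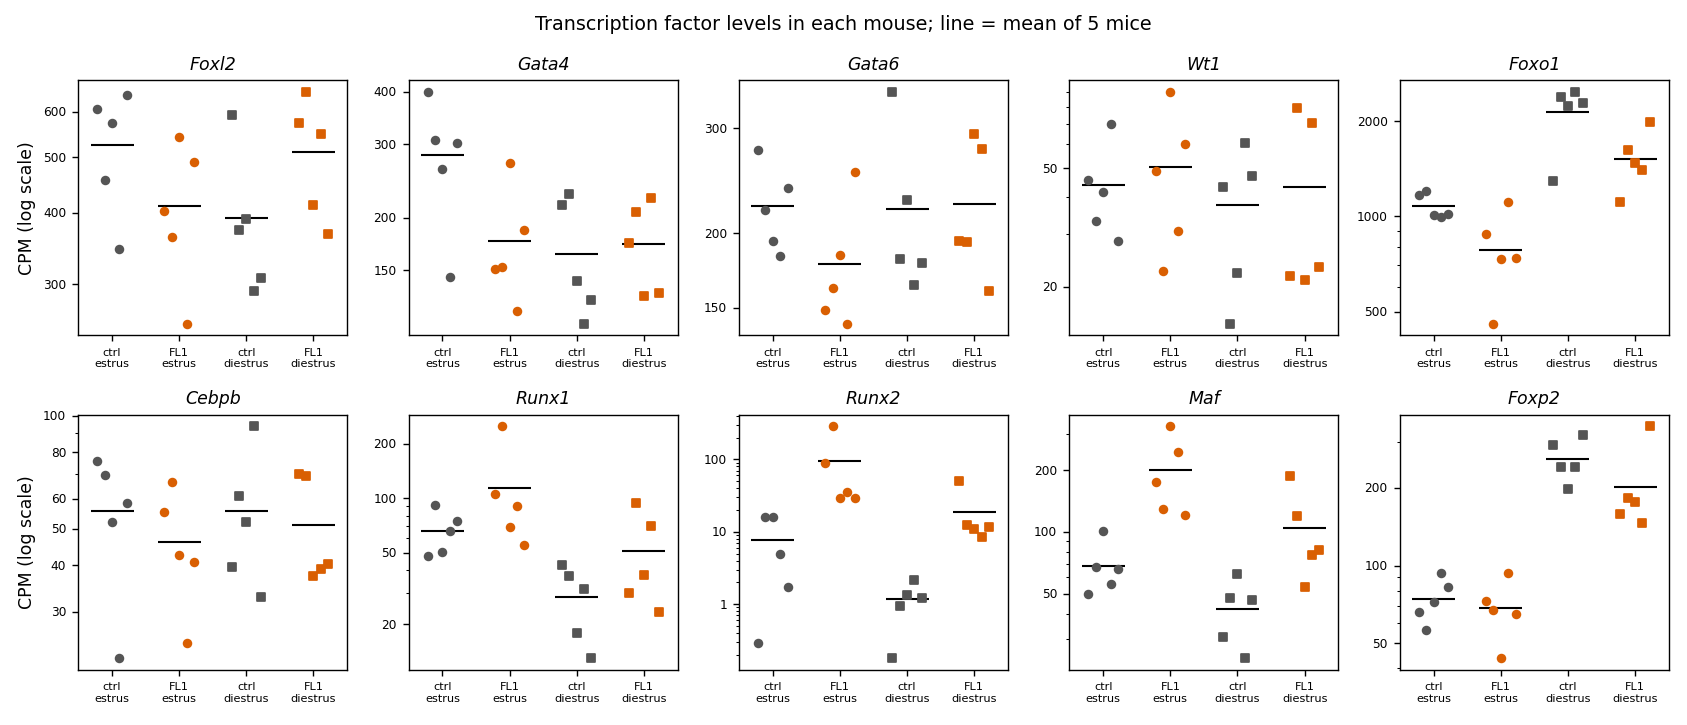
Level of each transcription factor in CPM (log scale, a separate axis per gene) in each of the 20 mice, grouped as ctrl estrus, FL1 estrus, ctrl diestrus and FL1 diestrus, with a line at the mean of 5 mice. *Foxo1* and *Foxp2* are high in diestrus, *Runx1* is low in ctrl diestrus, *Runx2* is high in FL1 in both stages, and the groups of *Foxl2*, *Gata4*, *Gata6*, *Wt1* and *Cebpb* overlap.

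The first question was whether the factors that define GC identity differ between the lines. *Foxl2* (ENSMUSG00000050397, chr9:98955288-98958543, plus strand), the factor that keeps GCs from taking on a Sertoli program, was read at 608, 456, 573, 346 and 641 CPM in the 5 ctrl mice in estrus and at 402, 362, 542, 256 and 491 CPM in the 5 FL1 mice. The values of the lines interleave. In diestrus *Foxl2* was 593, 373, 390.0, 292 and 308 CPM in ctrl and 574, 649.8, 413, 549 and 368 CPM in FL1, again with overlap. The log2 fold change of FL1 against ctrl was -0.36 (SE 0.22, edgeR adjusted p = 0.619) in estrus and 0.39 (SE 0.23, edgeR adjusted p = 1.000) in diestrus, so neither passed the threshold of 0.05. The transcript *Foxl2os*, on the other strand and sharing exon positions with *Foxl2*, was at 3.58 CPM on average; the counting strand is not given in the sources used here.

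*Gata4* (ENSMUSG00000021944, chr14:63198922-63271692, minus strand), which encodes a zinc finger activator of steroidogenic genes, was at 399, 307, 261, 145 and 302 CPM in ctrl estrus and 151, 153, 270.1, 120.2 and 187 CPM in FL1 estrus. 4 of the 5 ctrl mice lay above 4 of the 5 FL1 mice, with ctrl replicate 4 and FL1 replicate 3 on the other side. In diestrus it was 214, 228, 141, 111.9 and 127.4 CPM in ctrl and 174, 207, 131, 224 and 132 CPM in FL1. The line difference in estrus was -0.68 (SE 0.26; 95% interval -1.19 to -0.18), the lowest p of the 7 tested factors in that comparison, and it did not pass (edgeR adjusted p = 0.294). In diestrus it was 0.08 (SE 0.24, edgeR adjusted p = 1.000).

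*Gata6*, on chromosome 18, is the close relative of *Gata4* and acts with it in GCs. It was at 276, 219, 194, 183 and 238 CPM in ctrl estrus and 149, 162, 184, 141 and 253 CPM in FL1 estrus, and at 345, 181, 228, 163 and 178 CPM in ctrl diestrus and 194, 194, 293, 277 and 159.9 CPM in FL1 diestrus. The 4 ranges overlap, and the line differences were -0.32 (SE 0.20, edgeR adjusted p = 0.617) in estrus and 0.03 (SE 0.25, edgeR adjusted p = 1.000) in diestrus. The gene 1010001N08Rik shares exon positions with *Gata6* on the other strand and was at 17.3 CPM on average. The balance of the pair, as the log2 ratio of *Gata4* to *Gata6* counts with 0.5 added to each, was 0.29 ± 0.36 (SD, n = 5) in ctrl estrus, -0.03 ± 0.37 in FL1 estrus, -0.42 ± 0.43 in ctrl diestrus and -0.36 ± 0.48 in FL1 diestrus. The lines differed by -0.33 in estrus (2-sided exact permutation test over 252 splits, p = 0.19) and by 0.05 in diestrus (exact p = 0.873); the smallest p this design allows is 0.00794.

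*Wt1* (chromosome 2), a zinc finger factor that is highest in small follicles, varied widely within groups. It was at 45.7, 33.3, 41.5, 70.3 and 28.5 CPM in ctrl estrus, 48.8, 22.5, 89.9, 30.7 and 60.4 CPM in FL1 estrus, 43.1, 15.03, 22.3, 60.7 and 46.9 CPM in ctrl diestrus and 21.7, 79.4, 21.1, 70.9 and 23.3 CPM in FL1 diestrus. In FL1 diestrus the mice split into 2 at 70.9 and 79.4 CPM and 3 between 21.1 and 23.3 CPM. The line difference was 0.20 in estrus (SE 0.35, edgeR adjusted p = 0.921) and 0.21 in diestrus (SE 0.45, edgeR adjusted p = 1.000); the 95% interval in diestrus ran from -0.66 to 1.09.

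None of the 4 identity factors differed between estrus and diestrus within a line by the test. *Gata4* came nearest, in ctrl, with a mean of 283 ± 92.2 CPM (SD, n = 5) in estrus and 165 ± 52.9 CPM in diestrus, a log2 fold change of -0.78 (SE 0.26, edgeR adjusted p = 0.186). In FL1 its change was -0.03 (SE 0.24, edgeR adjusted p = 0.989). Whether the lines differ in this step was tested with the interaction of line and stage, where *Foxl2* (0.74, SE 0.33) and *Gata4* (0.76, SE 0.37) had the largest values of the 7 tested members and neither passed (edgeR adjusted p = 1.000 for each). By edgeR 0 of 14938 genes passed that interaction (0.0%), 710 had an unadjusted p under 0.05, and DESeq2 called 1.

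The testicular counterpart was read through 5 Sertoli cell factors. *Sry*, *Sox10* and *Dmrt1* had 0 counts in all 20 samples. *Sox9*, the factor that FOXL2 represses, ranged from 0 to 13.8 CPM and was highest in estrus, at 3.48 ± 2.32 CPM (SD, n = 5) in ctrl and 6.16 ± 4.97 CPM in FL1, and *Sox8* was at 7.44 ± 3.68 CPM and 8.29 ± 4.97 CPM in the same groups. Neither passed a test between the lines (edgeR adjusted p = 0.887 for *Sox9* and 0.975 for *Sox8* in estrus).

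*Foxo1* (ENSMUSG00000044167, chr3:52268336-52353221, plus strand), the forkhead factor of growing follicles, was the tested member that differed between the stages most clearly. In ctrl it was 1172, 1205, 1008, 992 and 1019 CPM in estrus and 1292, 2390.2, 2231, 2474 and 2278 CPM in diestrus. All 5 diestrus mice lay above all 5 estrus mice, although ctrl diestrus replicate 1 was close to the estrus range and the other 4 were not. In FL1 it was 879, 457, 734, 1111 and 741 CPM in estrus and 1113, 1617, 1476, 1404 and 1992 CPM in diestrus, also without overlap but by a narrow gap. The sum of the 10 GC markers moved with the stage in ctrl as well, from 12174 to 15074 CPM in estrus to 15190 to 21657 CPM in diestrus, and in FL1 it ranged from 7468 to 16156 CPM and from 12962 to 23079 CPM; its part in the *Foxo1* difference was not tested.

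In ctrl *Foxo1* rose by 0.98 on the log2 scale from estrus to diestrus (SE 0.18, edgeR adjusted p = 0.0143). It was the 1 of 7 tested members called in this comparison, where 1.36% of 12850 genes were called, and it and *Runx1* were the 2 members without overlap, where 3.66% of genes do not overlap. In FL1 the difference was of like size, 0.94 (SE 0.24), and did not pass by edgeR (adjusted p = 0.104; 0.221% of 13114 genes were called and 2.42% do not overlap), but it passed by DESeq2 (adjusted p = 0.00784) and by limma-voom (adjusted p = 0.00815). Without FL1 diestrus replicate 1, which had the lowest *Foxo1* of its group, edgeR called it too (1.03, adjusted p = 0.0297), and 178 of 13580 genes were then called instead of 29 of 13114. The interaction was -0.03 (95% interval -0.62 to 0.56). With both lines in 1 fit, the stage difference was 0.97 (SE 0.15, edgeR adjusted p = 0.000338), where 3.17% of 14938 genes were called; without FL1 estrus replicate 2, which had the lowest *Foxo1* of all, it was 0.89 (edgeR adjusted p = 0.000507).

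Between the lines *Foxo1* had a lower mean in FL1 in both stages. The group means were 1079 ± 100.9 CPM (SD, n = 5) in ctrl and 784 ± 238 CPM in FL1 in estrus, and 2133 ± 479.6 CPM in ctrl and 1520.5 ± 321 CPM in FL1 in diestrus. The log2 fold changes were -0.46 (SE 0.21, edgeR adjusted p = 0.418) and -0.48 (SE 0.21, edgeR adjusted p = 0.857). Without FL1 estrus replicate 2 the estrus value was -0.32 (edgeR adjusted p = 0.680). With both stages in 1 fit the line difference was -0.47 (SE 0.15, edgeR adjusted p = 0.130), which did not pass by edgeR but did by limma-voom (adjusted p = 0.0135). The last 500 bases of the *Foxo1* transcript hold a stretch shared with transcripts of 384 other genes (90% identity over 100 bases), and reads that match in several places were not counted.

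**Figure D3:**
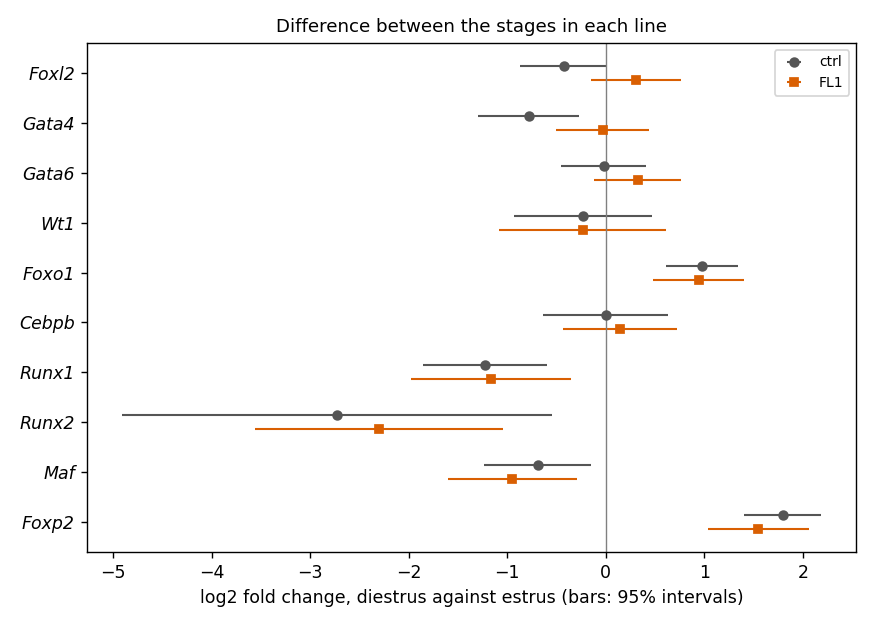
Log2 fold change of diestrus against estrus for each transcription factor in ctrl (circles) and FL1 (squares), with bars of 95% intervals (normal approximation). *Foxo1* and *Foxp2* lie above 0 and *Runx1*, *Runx2* and *Maf* below 0 in both lines, and the bars of ctrl and FL1 overlap for every gene.

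The next genes are those that GCs use after LH. *Cebpb* (chromosome 2), the C/EBPβ gene that LH induces through ERK signalling, was 75.5, 69.3, 52.2, 22.6 and 58.6 CPM in ctrl estrus and 55.6, 66.5, 42.5, 24.8 and 40.8 CPM in FL1 estrus. In diestrus it was 39.5, 60.9, 52.2, 93.6 and 32.98 CPM in ctrl and 69.9, 69.1, 37.4, 39.1 and 40.2 CPM in FL1. All 4 ranges overlap. The line difference was -0.28 (SE 0.32, edgeR adjusted p = 0.860) in estrus and -0.11 (SE 0.30, edgeR adjusted p = 1.000) in diestrus, and the stage difference with both lines in 1 fit was 0.08 (SE 0.22, edgeR adjusted p = 0.931). *Tmem189* shares exon positions with *Cebpb* on the other strand and was at 23.8 CPM on average.

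*Runx1* (ENSMUSG00000022952, chr16:92601466-92826149, minus strand), a RUNX factor that supports GC identity in the fetal ovary and is induced at ovulation, was 48.1, 92.01, 50.4, 65.8 and 74.6 CPM in ctrl estrus and 42.6, 36.9, 18.1, 31.5 and 13.00 CPM in ctrl diestrus. Every diestrus value lay below every estrus value. In FL1 it was 106.1, 249.6, 69.2, 90.9 and 55.1 CPM in estrus and 30.01, 94.1, 37.5, 69.9 and 23.6 CPM in diestrus, with overlap and with replicate 2 the highest of its group in both stages. With both lines in 1 fit *Runx1* fell by 1.19 on the log2 scale from estrus to diestrus (SE 0.27, edgeR adjusted p = 0.0122), and without FL1 estrus replicate 2 it fell by 0.97 (edgeR adjusted p = 0.0359). Thus 2 of the 7 tested members were called in that fit, 1 in each direction, beside 1.61% of all genes called higher and 1.56% called lower. *Runx1* is also used by leukocytes, whose marker sum was lower in ctrl diestrus, at 7.69 to 23.5 CPM, than in ctrl estrus, at 20.01 to 51.9 CPM. Of the 7 leukocyte genes of the list that were tested in that comparison, 1 had a positive log2 fold change, the median was -1.06 and 0 were called. The stroma sum was also lower in ctrl diestrus, at 255 to 955 CPM, than in ctrl estrus, at 653 to 1704 CPM. The part of these cells in the *Runx1* difference was not tested.

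Within ctrl alone the *Runx1* difference was -1.23 (SE 0.32) and missed the edgeR threshold (adjusted p = 0.0755), while DESeq2 (adjusted p = 0.0207) and limma-voom (adjusted p = 0.0260) called it. Without ctrl diestrus replicate 1 edgeR called it as well (-1.41, adjusted p = 0.0462). Within FL1 it was -1.17 (SE 0.41, edgeR adjusted p = 0.311) and -0.67 without FL1 estrus replicate 2. Between the lines *Runx1* was at 66.2 ± 18.1 CPM (SD, n = 5) in ctrl and 114.2 ± 78.2 CPM in FL1 in estrus, a log2 fold change of 0.79 (SE 0.34, edgeR adjusted p = 0.388). This value rested on 1 mouse: without FL1 estrus replicate 2 it was 0.28 (edgeR adjusted p = 0.872). In diestrus it was 0.86 (SE 0.40, edgeR adjusted p = 0.892).

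*Runx2* (ENSMUSG00000039153, chr17:44495987-44814797, minus strand), best known as the bone regulator and induced by LH in periovulatory GCs, was picked for its level here, so no p is given. In estrus it was 0.292, 15.9, 16.2, 4.87 and 1.73 CPM in ctrl and 90.02, 285, 29.1, 34.9 and 28.9 CPM in FL1. In diestrus it was 0.179, 0.939, 1.34, 2.19 and 1.21 CPM in ctrl and 50.96, 12.5, 11.05, 8.37 and 11.6 CPM in FL1. In each stage all 5 FL1 mice lay above all 5 ctrl mice, which is how the gene was chosen and is not a finding (3.56% of genes in estrus and 1.58% in diestrus do not overlap).

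In ctrl diestrus *Runx2* was near the limit of the reads, with 1 to 12 counts per mouse, where 3 counts are the floor set here and amount to between 0.401 and 0.547 CPM. The fitted log2 fold change of FL1 against ctrl was 3.57 (SE 0.79) in estrus and 4.0 (SE 0.73) in diestrus. FL1 estrus replicate 2, at 285 CPM, and FL1 diestrus replicate 1, at 51.0 CPM, lay far above the next mice of their groups, at 90.02 and 12.5 CPM. Without the first the estrus value was 2.55, and without the second the diestrus value was 3.21. From estrus to diestrus *Runx2* differed by -2.73 (SE 1.11) in ctrl and by -2.30 (SE 0.64) in FL1, the latter -1.28 without FL1 estrus replicate 2 and -3.11 without FL1 diestrus replicate 1.

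The makeup of the Runx family differed along with this. *Runx2* counts made up 9.59 ± 9.66% (SD, n = 5) of all *Runx1*, *Runx2* and *Runx3* counts in ctrl estrus, 37.6 ± 11.3% in FL1 estrus, 4.95 ± 3.37% in ctrl diestrus and 27.1 ± 20.9% in FL1 diestrus. In estrus the shares ran from 0.604 to 23.8% in ctrl and from 27.7 to 53.0% in FL1, and in diestrus from 0.418 to 8.49% in ctrl and from 10.6 to 61.7% in FL1. As *Runx2* was picked for its level, the share is a description too. *Runx3*, the third family member, was at 11.97 CPM or less in every sample, and *Cbfb*, the partner that all RUNX proteins bind, was at 266 ± 34.4 CPM in ctrl and 222 ± 54.3 CPM in FL1 in estrus (log2 fold change -0.26, SE 0.20, edgeR adjusted p = 0.733). *Supt3*, which overlaps *Runx2* on the other strand without sharing its exons, was at 44.9 CPM on average and at 31.4 to 57.9 CPM in single samples, and the antisense gene *Runx2os1* was at 1.92 CPM or less.

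**Figure D4:**
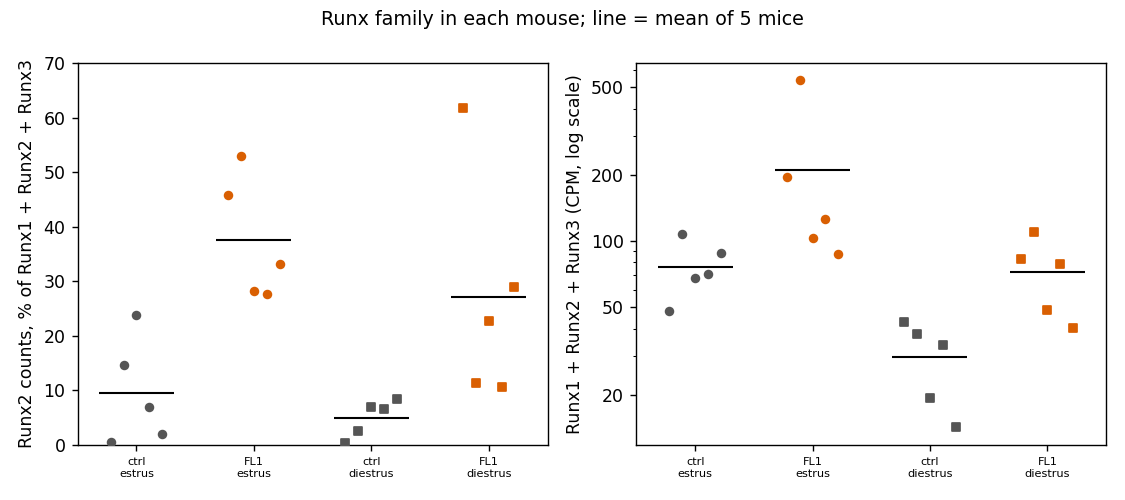
Left, *Runx2* counts as a percent of *Runx1*, *Runx2* and *Runx3* counts in each of the 20 mice; right, the summed level of the 3 genes in CPM (log scale); lines mark the mean of 5 mice. The FL1 shares, 27.7 to 53.0% in estrus and 10.6 to 61.7% in diestrus, lie above the ctrl shares of the same stage.

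*Maf* (ENSMUSG00000055435, chr8:115682942-115707794, minus strand) was likewise picked for its level. In estrus it was 49.7, 67.3, 101.5, 55.5 and 66.1 CPM in ctrl and 175, 130.0, 327, 244 and 121.2 CPM in FL1, with every FL1 mouse above every ctrl mouse. In diestrus it was 30.8, 47.5, 62.2, 24.2 and 46.4 CPM in ctrl and 188, 120.0, 54.1, 76.9 and 81.9 CPM in FL1, where only FL1 replicate 3 lay within the ctrl range. The fitted log2 fold change was 1.55 (SE 0.28) in estrus and 1.31 (SE 0.33) in diestrus, and from estrus to diestrus *Maf* differed by -0.69 (SE 0.28) in ctrl and -0.95 (SE 0.33) in FL1. Macrophages also use *Maf*. Of the 10 leukocyte genes, 8 could be tested between the lines in estrus and 6 of them had a higher estimate in FL1 (median log2 fold change 1.56, 0 called), and in diestrus 7 of 7 did (median 1.19, 0 called). The luteal and leukocyte sums of FL1 and ctrl are given above, and their part in the *Maf* and *Runx2* levels was not tested.

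*Foxp2* (ENSMUSG00000029563, chr6:14901349-15441977, plus strand), picked for its stage pattern, was 66.03, 56.4, 72.5, 93.3 and 82.6 CPM in ctrl estrus and 292, 240.3, 198, 241 and 322 CPM in ctrl diestrus. In FL1 it was 73.2, 67.4, 43.8, 93.6 and 65.1 CPM in estrus and 159, 183, 176, 147 and 346 CPM in diestrus. All 10 diestrus mice lay above all 10 estrus mice, with FL1 diestrus replicate 5 far above its group. That gap belongs to the pattern the gene was picked for and is not a finding. Between the stages, 3.66% of genes in ctrl and 2.42% in FL1 do not overlap. When the 4 groups of each member were put in order of their means, the ranges of neighbouring groups overlapped in 29 of 30 cases. The exception was *Foxp2* between FL1 diestrus and ctrl estrus, which is part of the same picked pattern, and the share over all genes was not counted. The fitted log2 fold change of diestrus against estrus was 1.79 (SE 0.20) in ctrl and 1.55 (SE 0.26) in FL1, or 1.27 without FL1 diestrus replicate 5. That of FL1 against ctrl was -0.11 (SE 0.23) in estrus and -0.35 (SE 0.24) in diestrus. In 4 of 20 *Foxp2* transcripts the last 500 bases hold a stretch found in transcripts of other genes.

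**Figure D5:**
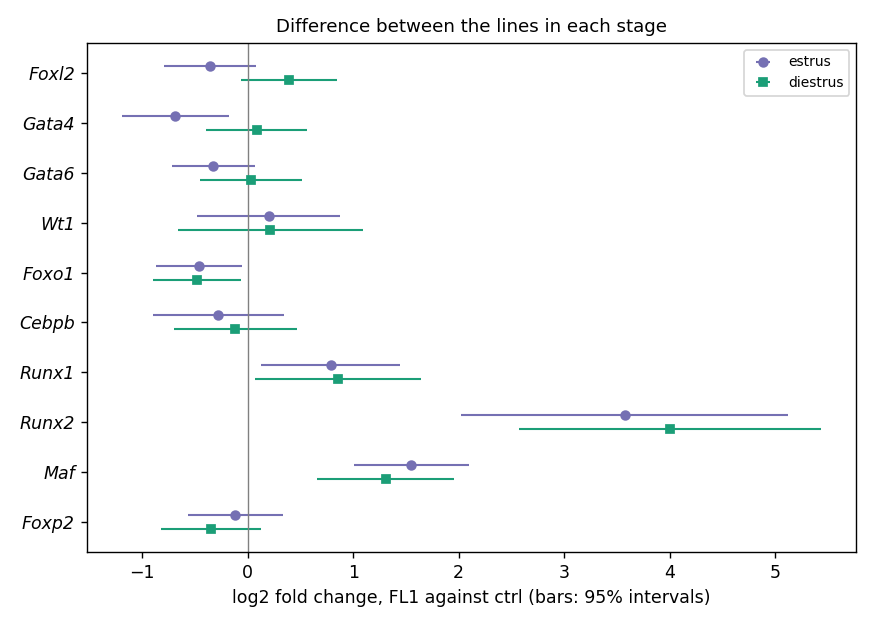
Log2 fold change of FL1 against ctrl for each transcription factor in estrus (circles) and diestrus (squares), with bars of 95% intervals (normal approximation). *Runx2* and *Maf*, picked for their level, lie above 0 in both stages; of the 7 tested genes none passed the threshold in either stage.

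Over the 7 tested members, 0 were called between the lines in estrus, where 0.769% of 13007 genes were called, and 3 of them had an unadjusted p under 0.05, as did 10.7% of all genes. In diestrus 0 were called, where 0.248% of 12886 genes were called, and 2 had an unadjusted p under 0.05, as did 5.56% of all genes. Their median log2 fold change was -0.32 in estrus and 0.08 in diestrus, beside 0.01 and 0.01 over all genes. DESeq2 and limma-voom also called 0 of the 7 in each stage. With both stages in 1 fit 0 were called, where 1.21% of 14938 genes were, and 2 had an unadjusted p under 0.05, as did 11.04% of all genes.

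The genes whose profile over the 20 samples came closest to the 3 picked members were found by the root mean square (RMS) difference of log2 CPM after each gene was centred on its mean. For *Runx2* they were *Tnfaip2* (RMS difference 1.32), *Mgst2* (1.32) and *Rab27a* (1.35), where the median over 14938 genes was 2.54. *Mgst2*, a microsomal glutathione transferase gene, was at 23.4 ± 16.1 CPM (SD, n = 5) in ctrl estrus, 92.8 ± 55.6 CPM in FL1 estrus, 6.41 ± 3.09 CPM in ctrl diestrus and 26.2 ± 14.5 CPM in FL1 diestrus. For *Maf* they were *Efhd1* (0.51), the apolipoprotein E gene *Apoe* (0.55) and *Csrp1* (0.55), with a median over genes of 1.25. For *Foxp2* they were the collagen lysyl hydroxylase gene *Plod2* (0.40), *Fshr* (0.41) and *Castor2* (0.46), with a median over genes of 1.198. *Fshr* was at 45.6 ± 6.93 CPM in ctrl estrus, 54.2 ± 20.1 CPM in FL1 estrus, 149.9 ± 49.2 CPM in ctrl diestrus and 106.2 ± 39.3 CPM in FL1 diestrus.

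The relatives of the members, 24 genes of the FOX, GATA, C/EBP, RUNX and MAF families and their cofactors of which 23 were matched, gave no call between the lines. Of the 16 tested in estrus and the 15 tested in diestrus 0 were called between the lines, with a median log2 fold change of -0.15 and -0.21, beside 0.01 and 0.01 over all genes. *Foxp4*, a forkhead repressor, had the lowest p in estrus, at 41.2 ± 18.9 CPM (SD, n = 5) in ctrl and 18.1 ± 8.83 CPM in FL1 (-1.19, SE 0.38, edgeR adjusted p = 0.186), and the small MAF gene *Mafg* in diestrus (0.46, SE 0.25, edgeR adjusted p = 0.976). Between the stages 1 relative of 15 was called in ctrl: *Foxp1*, the relative of *Foxp2*, rose from 184 ± 34.7 CPM in estrus to 402 ± 71.6 CPM in diestrus (1.12, SE 0.19, edgeR adjusted p = 0.00725). In FL1 the *Foxp1* difference was 0.38 (SE 0.28, edgeR adjusted p = 0.762).

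Among 10 other GC transcription factor genes, 0 were called between the lines in either stage, and their median log2 fold change was 0.02 in estrus and -0.16 in diestrus. *Nr5a2* (liver receptor homolog 1), needed for ovulation, was at 1208 ± 239 CPM in ctrl and 1133 ± 207 CPM in FL1 in estrus (edgeR adjusted p = 0.936). The estrogen receptor β gene *Esr2* had the lowest p in estrus, at 164 ± 46.4 CPM in ctrl and 103.2 ± 36.1 CPM in FL1 (-0.67, SE 0.27, edgeR adjusted p = 0.336). *Sox4* was the 1 gene of the 10 called between the stages with both lines in 1 fit, and it rose in diestrus (0.61, SE 0.13, edgeR adjusted p = 0.00558).

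Of 15 genes known to respond to these factors or to FSH and LH, 2 of the 13 tested were higher in FL1 in estrus and 1 of the 12 tested in diestrus, and none was called lower, where 0.415% and 0.0931% of all genes were called higher. The median log2 fold change of the list was 0.40 in estrus and 0.25 in diestrus. *Star*, which carries cholesterol into mitochondria for steroid synthesis, was at 149 ± 95.2 CPM (SD, n = 5) in ctrl and 639 ± 275 CPM in FL1 in estrus (2.10, SE 0.38, edgeR adjusted p = 0.0106; 2.09 without FL1 estrus replicate 2, edgeR adjusted p = 0.0199), and at 57.8 ± 27.9 CPM and 272 ± 111.5 CPM in diestrus (2.25, SE 0.36, edgeR adjusted p = 0.00899). The LH receptor gene *Lhcgr* was at 16.9 ± 14.8 CPM in ctrl and 138 ± 156 CPM in FL1 in estrus (3.02, SE 0.65, edgeR adjusted p = 0.0327), and its difference in diestrus was 0.64 (SE 0.55, edgeR adjusted p = 1.000). The FL1 mean rested on replicate 2, at 415 CPM, while the other 4 mice were at 44.2 to 97.4 CPM (68.7 ± 22.8 CPM, SD, n = 4), all above the ctrl mice, which ended at 36.03 CPM. Without that mouse the *Lhcgr* difference in estrus was 2.02 (SE 0.51) and was no longer called (edgeR adjusted p = 0.105). The call was also lost without ctrl estrus replicate 1 (adjusted p = 0.0738), 2 (0.0873) or 4 (0.0803), so it held in 6 of 10 such edgeR fits. The study itself selected *Star* and *Lhcgr* from these samples, so their calls are not independent evidence, and both are also on the luteal marker list. The inhibin genes *Inha* (-0.17, SE 0.19, edgeR adjusted p = 0.858) and *Inhba* (1.00, SE 0.39, edgeR adjusted p = 0.326), the genes of the list with the highest mean CPM, did not pass in estrus.

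Between the stages in ctrl, 2 of the 13 tested response genes rose in diestrus and 1 fell, where 0.786% of all genes were called higher and 0.576% lower. *Fshr* rose (1.71, SE 0.23, edgeR adjusted p = 0.00155), as did the activin antagonist gene *Fst*, a FOXL2 target (1.28, SE 0.23, edgeR adjusted p = 0.0101), and *Amhr2*, the receptor gene for anti-Müllerian hormone, fell from 348 ± 32.02 CPM to 179.5 ± 48.3 CPM (edgeR adjusted p = 0.0230). The *Amhr2* call was lost in 5 of 10 fits that left out 1 mouse (without ctrl estrus replicates 2, 3 or 4 or ctrl diestrus replicates 3 or 5), with an edgeR adjusted p of up to 0.0773 and a log2 fold change of -1.08 to -0.83. In FL1 0 of 13 were called. With both lines in 1 fit, 4 rose in diestrus (*Fshr*, *Fst*, *Inhba* and *Cyp19a1*) and 2 fell (*Star* and *Cyp11a1*) of 14 tested, where 1.61% of all genes were called higher and 1.56% lower.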

How the data were processed

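Per the labels and the study's methods, RNA of 20 GC samples was made into QuantSeq 3′ mRNA libraries, sequenced on an Illumina HiSeq and aligned with STAR to GRCm38 (Ensembl release 95); the 2 sources name different RNA extraction kits, and the strand setting of the counting is not given in the sources used here. What the authors deposited are unnormalized whole-number counts of reads, 1 table per mouse, with 4 summary lines (unmapped, multimapping, no feature, ambiguous) that were left out of library sizes; multimapping reads were 23.2 to 32.8% of the reads in a file. Counts came from 5446576 to 8257041 reads on genes per sample (median 6457585.5). Gene names and positions are from GENCODE M21 and promoters from RefSeq GRCm38.p6.

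From the counts, edgeR 4.0.16 (R 4.3.3) quasi-likelihood F tests were fitted across all genes with TMM scaling and filterByExpr (minimum count 10, total 15, share of samples 0.7), on the 10 samples of each comparison within a stage or line and on all 20 for the interaction and the adjusted fits. p-values were adjusted by Benjamini-Hochberg over all genes tested and called at 0.05. Fold changes are FL1 against ctrl, diestrus against estrus, or, for the interaction, the line difference in diestrus minus that in estrus. SE is the standard error of the log2 fold change, and 95% intervals use a normal approximation. Each sample is 1 mouse. Alternatives were DESeq2 1.42.0, limma 3.58.1 (voom), RLE size factors, no filter, robust fitting, 1 fit of all 20 samples, a replicate block and leaving out each sample; leaving out FL1 estrus replicate 2 in the adjusted fits was singled out, and the called genes of the other lists were refitted without each sample, after seeing the data. The tests were checked on simulated counts. Transcript ends were compared with BLAST 2.17.0 and figures and summaries made with Python 3.11.15.

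The members and gene lists were chosen with earlier results of these data known, and *Runx2*, *Maf* and *Foxp2* for their pattern here. Named beside the 10 members were, from each list of relatives, other GC factors, response genes and Sertoli factors, the genes called between the lines, the 2 with the highest mean CPM and the lowest p per stage, and for each picked member the 3 genes of most similar profile. Genes outside this rule (*Sry*, *Sox10*, *Dmrt1*, *Runx3*, *Fshr*, *Fst*, *Amh*, *Amhr2*, *Cyp19a1*, *Cyp11a1*, *Gja1*, *Adamts1* and the genes overlapping a member) were named after their values were seen. *Ddit3* was left out because its symbol names 2 Ensembl genes.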

Additional observations from a re-analysis of the deposited data

Results flagged for a closer look

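In 40 groups of 5 mice (10 genes in 4 groups), 5 held 1 mouse that lay far from the other 4, by a gap of over 0.71 of the whole range of the group; chance flags about 1 in 20 groups. *Foxo1* in ctrl diestrus replicate 1 was the lowest of its group at 1292 CPM, with the next mouse at 2231 CPM. *Runx1* in FL1 estrus replicate 2 was the highest at 249.6 CPM, with the next at 106.1 CPM. In the same mouse *Runx2* was 285 CPM, with the next at 90.02 CPM, so 2 of the 5 cases fall on FL1 estrus replicate 2. *Runx2* in FL1 diestrus replicate 1 was 51.0 CPM, with the next at 12.5 CPM. *Foxp2* in FL1 diestrus replicate 5 was 346 CPM, with the next at 183 CPM.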

How the results depend on the processing

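Between the lines, 0 of 7 members were called within each stage under every alternative run. For the stage in ctrl, the count of members called was 1 and became 2 with no filter on low counts, with DESeq2 and with limma-voom, *Runx1* being added each time. For the stage in FL1 it was 0 and became 2 with no filter (*Foxo1* and *Runx1*), and 1 (*Foxo1*) with DESeq2, with limma-voom and with all 20 samples in 1 fit. For the line with both stages it was 0 and became 1 (*Foxo1*) with limma-voom. Leaving out 1 mouse at a time, the count for the stage in ctrl ranged from 1 to 2 (2 without ctrl diestrus replicate 1), that for the stage in FL1 from 0 to 1 (1 without FL1 diestrus replicate 1), and the line difference of the *Gata4* to *Gata6* ratio in diestrus from -0.061 to 0.25. The cause of these shifts was not tested. Over all genes, edgeR called 100 between the lines in estrus (373 with no filter, 425 with DESeq2), 32 in diestrus (55 higher and 52 lower with no filter, 118 with DESeq2), 175 between the stages in ctrl (348 with no filter, 526 with DESeq2) and 29 in FL1 (299 and 265, with 130 by limma-voom and 65 in 1 fit of all 20 samples). It called 0 for the interaction (6 with no filter, 1 with DESeq2), 181 for the line with both stages (319 and 438, with 286 by limma-voom) and 473 for the stage with both lines (873 with DESeq2, 787 by limma-voom). Leaving out 1 mouse at a time, these counts ranged from 66 (without FL1 estrus replicate 1) to 130, from 21 (without FL1 diestrus replicate 4) to 32, from 77 (without ctrl diestrus replicate 5) to 176, from 13 (without FL1 diestrus replicate 3) to 178 (without FL1 diestrus replicate 1), 0 throughout for the interaction, from 139 to 209, and from 324 to 728 (without FL1 diestrus replicate 1). Others that moved a count by over 1.5 times were, for the stage in ctrl, ctrl estrus replicates 2 (88), 3 (91) and 4 (100) and ctrl diestrus replicate 3 (64 higher and 40 lower), and, for the stage in FL1, FL1 diestrus replicates 2 (18), 4 (14) and 5 (14).

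Values close to 0 changed sign without passing a test: *Cebpb* for the stage in ctrl became 0.019 with limma-voom and 0.0044 with all 20 samples in 1 fit, *Wt1* for the interaction became -0.013 with RLE size factors, -0.015 with DESeq2 and -0.062 with the replicate block, and *Foxo1* for the interaction became 0.066 with limma-voom. Leaving out 1 mouse at a time, the log2 fold changes of the tested members that changed sign ranged for the line in estrus as *Wt1* -0.10 to 0.44. For the line in diestrus they ranged as *Gata4* -0.032 to 0.23, *Gata6* -0.082 to 0.26, *Wt1* -0.13 to 0.45 and *Cebpb* -0.26 to 0.14. For the stage in ctrl they ranged as *Gata6* -0.24 to 0.073, *Wt1* -0.47 to 0.0061 and *Cebpb* -0.26 to 0.15. For the stage in FL1 they ranged as *Gata4* -0.15 to 0.17, *Wt1* -0.57 to 0.080 and *Cebpb* -0.014 to 0.31. For the interaction they ranged as *Wt1* -0.33 to 0.32, *Foxo1* -0.17 to 0.13, *Cebpb* -0.011 to 0.41 and *Runx1* -0.28 to 0.57. For the line with both stages they ranged as *Foxl2* -0.053 to 0.0997. For the stage with both lines they ranged as *Foxl2* -0.14 to 0.011 and *Cebpb* -0.042 to 0.15. Of the 3 picked members, *Foxp2* for the line in estrus ranged from -0.25 to 0.024, and for the interaction *Runx2* ranged from -0.38 to 1.46 and *Maf* from -0.58 to 0.0064.

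The replicate numbers of the labels name different mice. Same-numbered samples of the groups compared correlated in their deviations from the group means by -0.116 to 0.117, and between 0 and 2 of 10 samples correlated best with their own number, so the numbers give no pairing. The replicate block moved no count of members called; over all genes it gave 58 calls between the lines in estrus and 13 in diestrus. Depth limited *Runx2* in ctrl diestrus, where 1 to 12 reads per mouse were counted.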
